A study of Mus musculus with 4 samples.

Results

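The 10 genes described here are Sox9, Sox5, Sox6, Acan, Comp, Matn3, Hapln1, Ucma, Vit and Chad, a list of cartilage transcription factors and cartilage matrix genes from which the collagens were left out. All 10 symbols matched 1 identifier each among the 39179 genes of the count files. Messenger RNA was counted in tumour-associated macrophages (TAMs), sorted from dissociated tumours for CD45, CD11b and F4/80 and against GR1. The tested tumours came from MycCaP-BMP4 cells, which overexpress the secreted bone morphogenetic protein BMP4, and their comparison group from MycCaP cells, a MYC-driven mouse prostate cancer line, both grown under the skin of FVB mice. Each group had 2 libraries, and replicates 1 and 2 are given in that order throughout. The labels do not say whether the MycCaP-BMP4 line is a single clone, how many mice gave each sample, or whether each replicate is its own mouse; the p-values therefore speak only of library-to-library spread, part of which may be technical. F4/80 is named in the titles of the MycCaP-BMP4 samples alone.

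Cartilage is built by chondrocytes under the control of SOX9, a transcription factor that needs SOX5 and SOX6 as partners to switch on the genes of the cartilage matrix. That matrix holds collagen II fibrils, aggrecan bound to hyaluronan through link protein, and adaptor proteins such as COMP, matrilin-3 and chondroadherin that connect these parts. BMP signals induce Sox9 and drive chondrocyte formation during skeletal development. SOX9 is also made by epithelial cells, those of the prostate included.

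Libraries held 23058263 to 24967143 counts in genes, and levels are given as CPM, read counts scaled to a common depth with TMM factors. Bmp4 was detected mainly in MycCaP-BMP4 TAMs, at 512 and 182 CPM, against 0.175 and 0.0422 CPM (4 and 1 counts) in MycCaP TAMs. Whether that RNA came from the sorted macrophages or from tumour cells was not tested. In these bulk samples fewer cells of a type and less RNA per cell cannot be told apart.

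The cartilage genes lay in both directions, as did the tested genes as a whole. Sox9, Acan and Vit lay higher in MycCaP-BMP4 TAMs with no overlap, Ucma and Matn3 lay lower, the groups overlapped for Hapln1, Chad and Comp, and Sox5 and Sox6 had at most 5 counts in any library. The 8 genes other than Sox5 and Sox6 passed the filter on low counts. None of the 8 was called by edgeR's quasi-likelihood test at an adjusted p under 0.05, where 0% of all 14075 tested genes were called. At an unadjusted p under 0.05, 3 of the 8 were higher (12.3% of all genes) and 1 was lower (6.76%). DESeq2 called Sox9, Acan and Vit higher (6.83% of all genes) and Ucma lower (3.01%), where it called 9.84% in either direction, and limma-voom called none. With no filter edgeR called these same 4 genes, among 5.07% of 21856. Both MycCaP-BMP4 libraries lay above both MycCaP libraries for 3 of the 8 genes (28.9% of all genes) and below for 2 (29.7%; 58.7% in either direction). The shares of all genes are the background for these counts. Acan and Vit passed the filter only through the MycCaP-BMP4 libraries, and Ucma only through the MycCaP libraries. Their lack of overlap was thereby fixed in advance and adds no support to their calls. The same holds for any tested gene with almost no counts in 1 group. The median log2 fold change of the 8 was 0.70 against -0.03 for all tested genes, and setting Acan and Vit to their lower bounds leaves it at 0.70 by construction, since both bounds lie above it. The median was 0.03 without MycCaP-BMP4 replicate 1, where 7 genes were tested, and 2.06 with libraries scaled on macrophage genes.

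**Figure D1:**
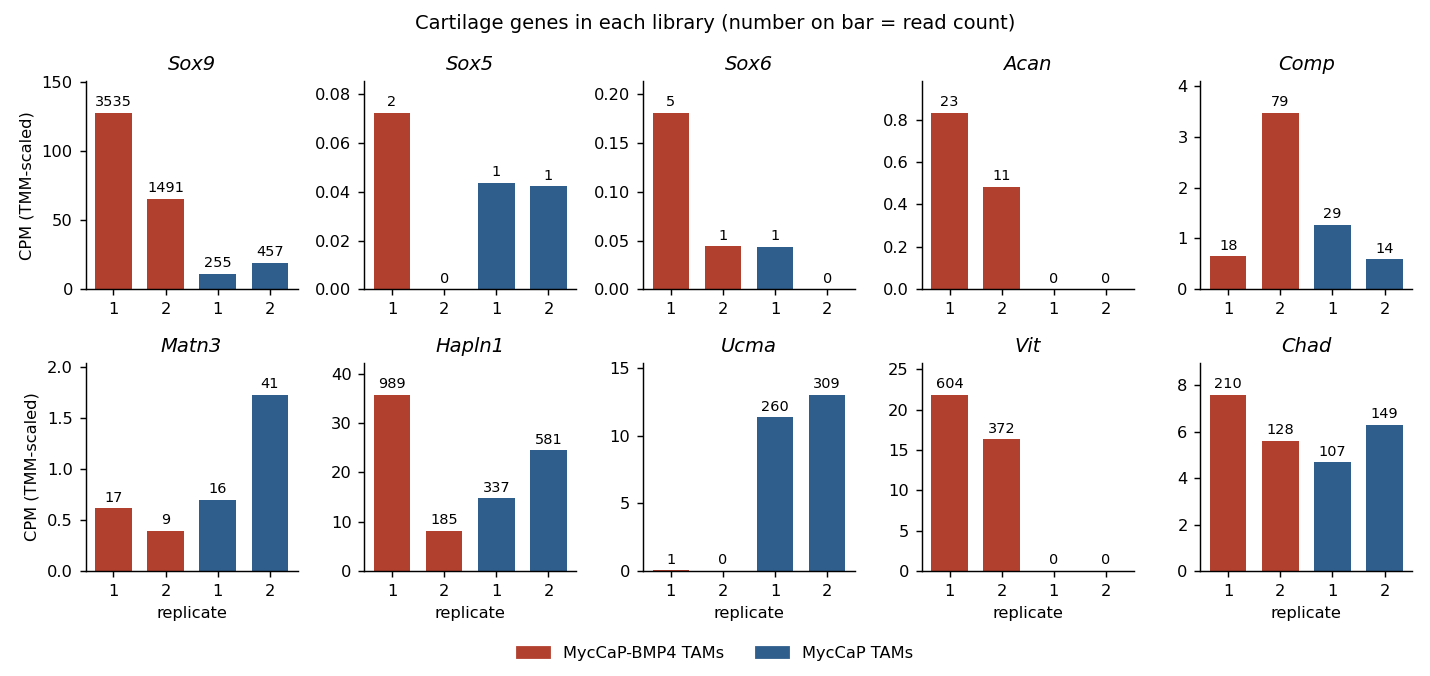
Normalised read counts in CPM (scaled with TMM factors; each panel has its own axis from 0) of the 10 cartilage genes in each MycCaP-BMP4 library (red, left) and each MycCaP library (blue, right), with the raw read count above each bar. Vit and Acan have no count in the MycCaP libraries, Ucma has 1 and 0 counts in the MycCaP-BMP4 libraries, and the bars of Hapln1 and Comp differ more within the MycCaP-BMP4 group than between groups.

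The start regions of the genes differed in base composition. RefSeq's table (GRCm38.p6) held upstream windows for 7 of the 10 genes, with Sox9, Comp and Vit not among them. The 250 bases before the start used in that table are shown for Acan, Ucma and Chad. Acan was seen only in MycCaP-BMP4 TAMs, Ucma almost only in MycCaP TAMs, and the groups overlapped for Chad. The Acan window ends short of the GENCODE gene start at 79053483, while the Ucma and Chad windows end at the base before theirs. Each is printed 5′ to 3′ on the plus strand, with CpG dinucleotides in capitals.
Acan, chr7:79052976-79053225: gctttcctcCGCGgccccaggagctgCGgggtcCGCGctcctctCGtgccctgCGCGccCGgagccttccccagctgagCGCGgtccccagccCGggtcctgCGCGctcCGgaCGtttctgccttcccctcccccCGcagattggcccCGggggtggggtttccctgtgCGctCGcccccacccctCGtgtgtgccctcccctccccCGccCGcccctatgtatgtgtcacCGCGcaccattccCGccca
Ucma, chr2:4975872-4976121: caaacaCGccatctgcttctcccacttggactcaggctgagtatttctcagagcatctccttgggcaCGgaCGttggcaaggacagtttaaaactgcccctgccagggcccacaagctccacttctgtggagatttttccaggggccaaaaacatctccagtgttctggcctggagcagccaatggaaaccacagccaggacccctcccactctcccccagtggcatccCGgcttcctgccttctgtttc
Chad, chr11:94564797-94565046: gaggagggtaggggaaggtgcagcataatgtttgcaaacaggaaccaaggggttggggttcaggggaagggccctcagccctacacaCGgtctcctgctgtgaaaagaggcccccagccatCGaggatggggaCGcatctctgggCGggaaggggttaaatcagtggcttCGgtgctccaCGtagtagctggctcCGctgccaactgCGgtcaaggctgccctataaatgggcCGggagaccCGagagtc
The Acan window had 26 CpG and 74.4% G and C, and 90.4% of the 32851 windows in the table had fewer CpG. The Ucma window had 4 CpG and 56.4% G and C, and the Chad window 10 CpG and 60.4%, beside medians of 6 CpG and 52.4% over all windows. The letters TATAAA, searched on both strands, were found in the Chad window and in 12.4% of all windows, and in neither of the other two. GGCGCC, a core to which BMP-activated SMAD proteins bind (9.59% of all windows), and the SOX cores ACAATG (10.7%) and ACAAAG (16.5%) were absent from all 3 windows. A match or its absence describes the letters of the window and nothing more.

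Sox9 (ENSMUSG00000000567; chromosome 11, 112782224 to 112787760 on GRCm38, plus strand, 1 transcript of 3 exons) had the most counts of the 3 SOX genes. It had 128 and 65.5 CPM in MycCaP-BMP4 TAMs, against 11.2 and 19.3 CPM in MycCaP TAMs. Both MycCaP-BMP4 libraries lay above both MycCaP libraries, and the lower of them held over 3 times the level of the higher MycCaP library. The difference on the log2 scale was 2.67 ± 0.46 (SE; adjusted p = 0.122 by edgeR and 6.34e-06 by DESeq2). Over 12 alternatives the adjusted p ran from 6.34e-06 to 0.89, and the log2 fold change from 2.10 without MycCaP-BMP4 replicate 1 to 4.43 when libraries were scaled on macrophage genes.

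The SOX9 partners were close to absent. Sox5 (chromosome 6) had 2 and 0 counts in MycCaP-BMP4 TAMs and 1 and 1 counts in MycCaP TAMs. Sox6 (chromosome 7) had 5 and 1 counts in MycCaP-BMP4 TAMs and 1 and 0 counts in MycCaP TAMs. The ratio of Sox6 was 5.54 (95% exact conditional interval 0.673 to 255, counting error only), so no difference was detectable at this depth. Of the antisense and intronic genes annotated inside Sox5 and Sox6, 1 count in 1 library was the most that the counted ones had, and the antisense gene Sox5os1, which shares 1330 exon bases with Sox5, had none.

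Of 18 relatives of the cartilage genes 11 were tested, with 4 higher and 2 lower in both MycCaP-BMP4 libraries, a median log2 fold change of -0.24, 0 called by edgeR and 4, all higher, by DESeq2. Over all tested genes, 28.9% lay higher and 29.7% lower in both libraries, and DESeq2 called 6.83% higher, which is the background for this list and for each list below. Sox8, which belongs to the same SOXE subfamily as Sox9, had 17.3 and 2.64 CPM (477 and 60 counts) in MycCaP-BMP4 TAMs, against 0.0875 and 0.0844 CPM (2 counts each) in MycCaP TAMs. Its log2 fold change was 6.77 ± 1.22 (SE; edgeR adjusted p = 0.124). Sox10, the remaining SOXE gene and a marker of Schwann and neural crest cells, had no count in any library. Sox13, the relative of Sox5 and Sox6, had 0.724 and 1.49 CPM in MycCaP-BMP4 TAMs and 1.14 and 1.48 CPM in MycCaP TAMs, and the groups overlapped.

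Acan (ENSMUSG00000030607; chromosome 7, 79053483 to 79115099) encodes aggrecan, the large proteoglycan that gives cartilage its resistance to compression. It had 23 and 11 counts in MycCaP-BMP4 TAMs and none in MycCaP TAMs. That is 0.833 and 0.483 CPM, near the floor of detection, and at least 10.5-fold higher than a floor of 3 counts over the MycCaP group. The adjusted p was 0.148 by edgeR and 0.0373 by DESeq2, with a range of 0.00623 to 0.89 over the 10 alternatives that could test it. Related large proteoglycans behaved otherwise: Vcan, the versican gene of many tissues, had 27.9 and 15.6 CPM in MycCaP-BMP4 TAMs and 18.7 and 43.5 CPM in MycCaP TAMs, and the brain genes Bcan and Ncan had at most 1 count in a library.

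Hapln1 (ENSMUSG00000021613; chromosome 13, 89539796 to 89611652) encodes link protein, which locks aggrecan onto hyaluronan. It had 35.8 and 8.13 CPM in MycCaP-BMP4 TAMs, against 14.7 and 24.5 CPM in MycCaP TAMs. The MycCaP-BMP4 libraries held both the highest and the lowest value. Their means were 21.97 ± 19.6 CPM in MycCaP-BMP4 TAMs and 19.6 ± 6.92 CPM in MycCaP TAMs (SD, n = 2 each), a difference smaller than either spread. The log2 fold change was 0.16 ± 0.69 (SE; edgeR adjusted p = 0.911). Its direction followed the library left out: it was -1.27 without MycCaP-BMP4 replicate 1 (adjusted p = 0.0525 by edgeR) and 0.89 without replicate 2 (adjusted p = 0.044), and both of these fits take their spread from the MycCaP pair alone.

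The other link protein genes were rarer. Hapln4 had 2.50 and 1.27 CPM in MycCaP-BMP4 TAMs and 0.263 and 0.253 CPM in MycCaP TAMs, with an edgeR adjusted p of 0.156. Hapln2 had 12 and 6 counts in MycCaP-BMP4 TAMs and none in MycCaP TAMs, at least 5.54-fold higher than the floor over the group, and did not pass the filter. Hapln3 had 11 and 0 counts in MycCaP-BMP4 TAMs and 1 and 0 counts in MycCaP TAMs. The groups did not overlap for Hapln4 and Hapln2 and overlapped for Hapln1 and Hapln3.

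Vit and Ucma stood at opposite ends of the table. Vit (ENSMUSG00000024076; chromosome 17, 78508064 to 78627408) encodes vitrin, a secreted protein with von Willebrand factor A domains. It had 604 and 372 counts, or 21.9 and 16.3 CPM, in MycCaP-BMP4 TAMs and no count in MycCaP TAMs. It was at least 301-fold higher than the floor over the group, and its fitted log2 fold change ranked 1 from the top among 14075 genes, a rank that depends on how the zeros are fitted. Vit and Acan were among 34 genes, 0.0868% of all genes in the files, with no count in MycCaP TAMs and 10 or more counts in each MycCaP-BMP4 library. The adjusted p of Vit was 0.0729 by edgeR and 5.45e-11 by DESeq2, and it ran from 5.45e-11 to 0.512 over 12 alternatives.

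Ucma (ENSMUSG00000026668; chromosome 2, 4976122 to 4985748) encodes a small secreted protein of chondrocytes that is rich in gamma-carboxylated glutamate. It had 1 and 0 counts in MycCaP-BMP4 TAMs, against 260 and 309 counts, or 11.4 and 13.05 CPM, in MycCaP TAMs. Over each group's summed counts it was 616-fold lower in MycCaP-BMP4 TAMs, with a 95% exact conditional interval of 110 to 24369 that covers counting error only. Its fitted log2 fold change of -8.94 ± 0.80 (SE) ranked 4 from the bottom among 14075 genes. That fold and rank depend on how its counts at or near 0 in MycCaP-BMP4 TAMs are fitted. The adjusted p was 0.0729 by edgeR and 1.29e-07 by DESeq2, with a range of 1.29e-07 to 0.512 over 12 alternatives. Both values in MycCaP TAMs were close to each other, and neither MycCaP-BMP4 library reached the floor of 3 counts.

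Comp (ENSMUSG00000031849; chromosome 8, 70373558 to 70382066) encodes cartilage oligomeric matrix protein, a pentamer of the thrombospondin family that bridges collagen fibrils. It had 18 and 79 counts, or 0.652 and 3.47 CPM, in MycCaP-BMP4 TAMs and 29 and 14 counts, or 1.27 and 0.591 CPM, in MycCaP TAMs. MycCaP-BMP4 replicate 2 stood apart, and the other 3 libraries had between 14 and 29 counts. The log2 fold change was 1.14 ± 0.96 (SE; adjusted p = 0.543 by edgeR), and it turned to -0.48 without MycCaP-BMP4 replicate 2. Among the other thrombospondin genes, Thbs3 had 26.22 and 11.99 CPM in MycCaP-BMP4 TAMs and 2.231 and 4.602 CPM in MycCaP TAMs (adjusted p = 0.148 by edgeR). Thbs1, also made by macrophages, had 17.05 and 89.5 CPM in MycCaP-BMP4 TAMs and 107 and 94.8 CPM in MycCaP TAMs.

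Matn3 (ENSMUSG00000020583; chromosome 12, 8947929 to 8972028) encodes matrilin-3, which joins collagen fibrils to aggrecan. It had 17 and 9 counts in MycCaP-BMP4 TAMs and 16 and 41 counts in MycCaP TAMs. In CPM the MycCaP-BMP4 libraries lay lower, at 0.616 and 0.395 CPM, against 0.700 and 1.73 CPM in MycCaP TAMs, but the nearest pair differed by less than the MycCaP replicates did. The log2 fold change was -1.25 ± 0.78 (SE; adjusted p = 0.421 by edgeR). Matn4, a matrilin of many tissues, had 1.38 and 7.38 CPM in MycCaP-BMP4 TAMs and 0.175 and 0.675 CPM in MycCaP TAMs (adjusted p = 0.208 by edgeR). Vwa1, a related cartilage gene, had 1.88 and 1.23 CPM in MycCaP-BMP4 TAMs and 3.06 and 3.17 CPM in MycCaP TAMs, while Matn1, the classical cartilage matrilin, had at most 4 counts in a library.

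Chad (ENSMUSG00000039084; chromosome 11, 94565047 to 94569127) encodes chondroadherin, a leucine-rich protein that binds collagen II and integrins. It had 7.60 and 5.62 CPM in MycCaP-BMP4 TAMs and 4.68 and 6.29 CPM in MycCaP TAMs. The groups overlapped, and the log2 fold change was 0.27 ± 0.43 (SE; adjusted p = 0.749 by edgeR). Chad lies inside Acsf2 on the opposite strand, and none of its 1680 exon bases falls in an exon of Acsf2. Acsf2 had 40.8 and 38.4 CPM in MycCaP-BMP4 TAMs and 38.0 and 43.2 CPM in MycCaP TAMs. The strand setting of the counting is unstated in the labels, so whether reads from Acsf2 introns were kept apart from those of Chad is unknown.

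**Figure D2:**
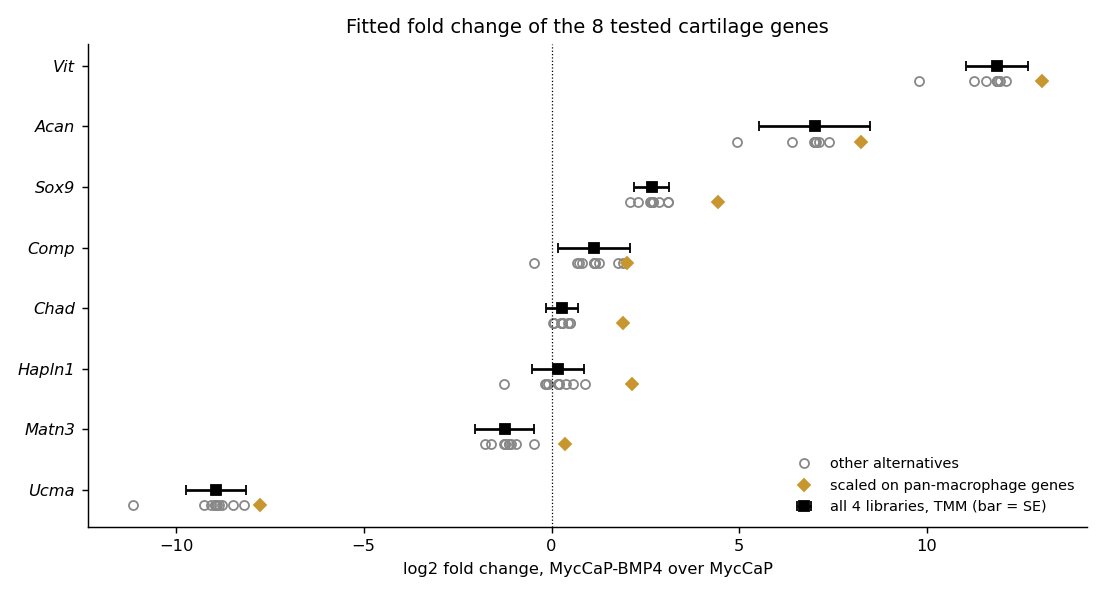
Fitted log2 fold change (MycCaP-BMP4 over MycCaP) of the 8 cartilage genes that passed the filter, with the value from all 4 libraries (black squares; bars are the SE), the value with libraries scaled on pan-macrophage genes (diamonds) and the values under the other alternatives (open circles). Ucma stays below 0 and Vit, Acan and Sox9 stay above 0 throughout. Hapln1 and Comp cross 0 when a library is left out. Matn3 is above 0 under the pan-macrophage scaling alone, which moves all genes up. Values for Vit and Acan depend on how their zeros in MycCaP TAMs are fitted. Those for Ucma depend on how its counts at or near 0 in MycCaP-BMP4 TAMs are fitted.

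Levels between genes were compared per kilobase of annotated exon. In MycCaP-BMP4 TAMs Sox9 was highest, with 30.96 and 15.8 CPM per kilobase. Vit followed with 6.78 and 5.06 and lay above Chad, with 4.53 and 3.35, in both libraries. Hapln1, at 6.07 and 1.38 CPM per kilobase, spanned the values of Chad and overlapped those of Vit. Comp had 0.220 and 1.17, Matn3 0.204 and 0.131, Acan 0.112 and 0.0647 and Ucma 0.0410 and 0 CPM per kilobase. In MycCaP TAMs Ucma came first, with 12.9 and 14.8 CPM per kilobase. The ranges of Sox9 (2.70 and 4.67), Chad (2.79 and 3.75) and Hapln1 (2.50 and 4.16 CPM per kilobase) overlapped. Those genes lay above Matn3 (0.232 and 0.574) and Comp (0.428 and 0.199), and Acan and Vit had none. With the longest transcript in place of all exons, no mean of a gene other than Sox5 moved by more than the spread between replicates.

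The MycCaP-BMP4 libraries differed from each other in the cartilage genes. Hapln1 was 4.41-fold higher in replicate 1 than in replicate 2 (95% exact conditional interval 3.76 to 5.18, counting error only), a gap of 4-fold or more that 1.72% of tested genes had. Comp ran the other way and was 5.33-fold higher in replicate 2, where 6.04% of tested genes had such a gap. The ratio of replicate 1 to replicate 2 was 1.95 for Sox9 (1.84 to 2.08), 1.34 for Vit (1.17 to 1.53), 1.35 for Chad (1.08 to 1.70) and 1.72 for Acan (0.807 to 3.92). The genes of macrophages and of tumour epithelium also differed between these libraries. Summed CPM of 15 pan-macrophage genes was 6926 and 25506 in MycCaP-BMP4 TAMs, against 33421 and 30147 in MycCaP TAMs, a ratio of 0.272 between the MycCaP-BMP4 replicates. Summed CPM of 13 tumour epithelial genes was 1726 and 720 in MycCaP-BMP4 TAMs and 155 and 192 in MycCaP TAMs, a ratio of 2.40. Krt15, a basal keratin gene, led that sum in MycCaP-BMP4 TAMs, while the epithelial marker Esrp1 had no count in any library, Epcam had at most 14 counts, and Cdh1 had 9 and 44 counts in MycCaP-BMP4 TAMs against 118 and 96 counts in MycCaP TAMs. Their part in the values of the cartilage genes was not tested.

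**Figure D3:**
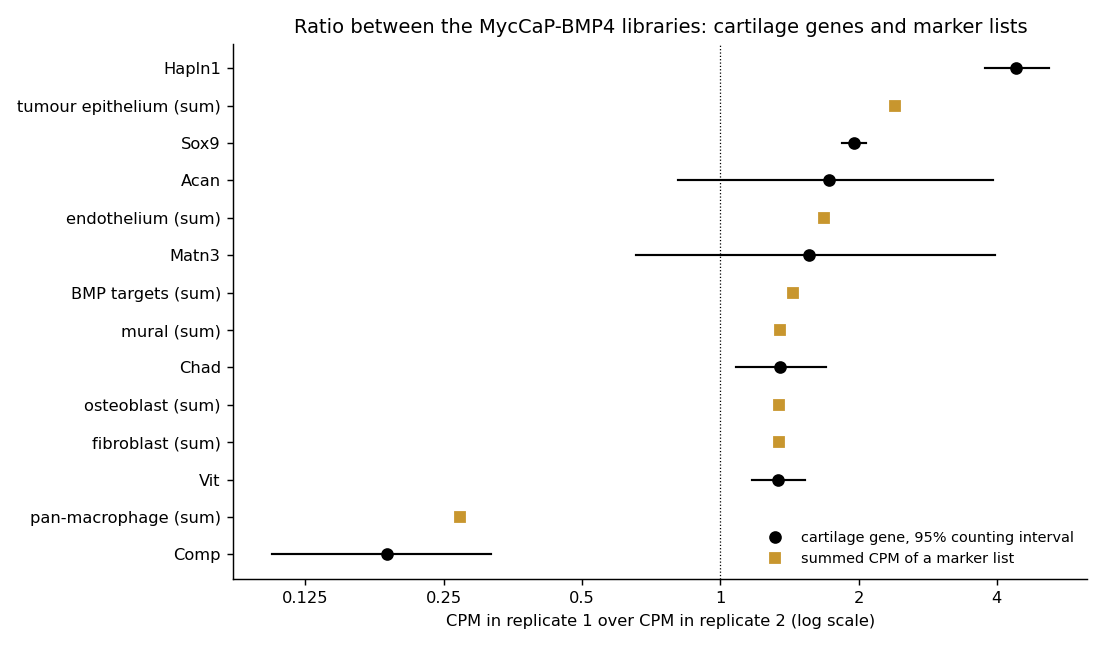
Ratio of CPM in MycCaP-BMP4 replicate 1 to replicate 2 on a log scale, for the cartilage genes with 9 or more counts in both libraries (circles; lines are 95% exact conditional intervals) and for the summed CPM of marker lists (squares). Hapln1 lies at 4.41, above the tumour epithelium sum at 2.40, and Comp lies at 0.188, beside the pan-macrophage sum at 0.272. Spp1 makes up most of the osteoblast sum.

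Scaling on the summed pan-macrophage genes put the median over all genes at 1.49 on the log2 scale, beside -0.03 under TMM, and scaling on library size alone moved it to 0.14. Relative to that median, under the macrophage scaling, Sox9 was at 2.94, Acan at 6.76, Vit at 11.57, Ucma at -9.25, Matn3 at -1.14, Hapln1 at 0.63, Comp at 0.50 and Chad at 0.42 on the log2 scale. Each of these had the sign of its value under TMM scaling, while without subtracting the median Matn3 turned to 0.35. The edgeR adjusted p under that scaling was 0.0198 for Sox9, 0.00623 for Acan, 0.00406 for Ucma and 6.31e-05 for Vit. That scaling called 5.38% of all genes, 5.22% higher and 0.156% lower in MycCaP-BMP4 TAMs.

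Of 13 BMP target genes 9 were tested, and 7 of them lay higher and 1 lower in both MycCaP-BMP4 libraries, where 28.9% of all tested genes were higher and 29.7% lower. Id1, a direct target of BMP signalling, had 160 and 52.98 CPM in MycCaP-BMP4 TAMs and 9.97 and 8.40 CPM in MycCaP TAMs. Smad6, Atoh8 and Smad9, which had the next smallest p-values on that list, also had their higher value in replicate 1. The ratio of replicate 1 to replicate 2 in the MycCaP-BMP4 group was 3.03 for Id1. It was 1.95 for Sox9 and 2.40 for the summed tumour epithelial genes. The 1 lower gene of the BMP list ran the other way, at a ratio of 0.208. A link between BMP signalling and Sox9 was not tested. No member of the list was called by edgeR, and DESeq2 called 4, all higher, beside 6.83% of all genes.

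The cartilage collagens, which chondrocytes assemble with the proteins above, were at low levels. Col2a1, the defining chondrocyte collagen gene, had 26 and 88 counts in MycCaP-BMP4 TAMs and none in MycCaP TAMs, at least 35.1-fold higher than the floor over the group. Its higher value was in replicate 2, as for Comp and unlike Acan and Sox9. Of the 8 collagen genes on the list 7 were tested, with 4 higher and 1 lower in both MycCaP-BMP4 libraries, a median log2 fold change of 1.89, 0 called by edgeR and 4 higher and 1 lower called by DESeq2. Of all tested genes 28.9% lay higher and 29.7% lower in this way, and DESeq2 called 6.83% higher and 3.01% lower. Col9a2 had 19 and 15 counts in MycCaP-BMP4 TAMs and none in MycCaP TAMs, and Col27a1 had 8.44 and 7.78 CPM in MycCaP-BMP4 TAMs against 2.80 and 1.48 CPM in MycCaP TAMs. Col11a1 was the lower gene, at 3.62 and 1.80 CPM in MycCaP-BMP4 TAMs and 7.83 and 13.6 CPM in MycCaP TAMs.

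The other cartilage matrix genes were mixed as well. Of 20, 9 passed the filter, 3 lay higher and 4 lower in both MycCaP-BMP4 libraries, edgeR called 0 and DESeq2 3 in each direction, and the median log2 fold change was -0.47. Ogn, which encodes the small leucine-rich protein osteoglycin, had 6.92 and 3.38 CPM in MycCaP-BMP4 TAMs and 62.65 and 145.5 CPM in MycCaP TAMs. Cilp2 and Cilp, genes of the cartilage intermediate layer proteins, had 3 and 0 counts and 3 and 6 counts in MycCaP-BMP4 TAMs, against 81 and 146 counts and 31 and 146 counts in MycCaP TAMs. Fmod, a collagen-binding proteoglycan gene, had 4.02 and 3.30 CPM in MycCaP-BMP4 TAMs and 0.438 and 0.718 CPM in MycCaP TAMs. Epyc, Scrg1, Cytl1 and Clec3a had no count in any library, and Snorc, a chondrocyte gene, had 1 count in 1 library.

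Genes that regulate cartilage or signal in it were tested for 11 of 20, with 5 higher and 2 lower in both MycCaP-BMP4 libraries, 0 called by edgeR and 3, all higher, by DESeq2. The median log2 fold change was -0.12. Besides Sox8, Fgfr3, a receptor gene that restrains growth plate chondrocytes, had 78.8 and 31.1 CPM in MycCaP-BMP4 TAMs and 6.83 and 12.2 CPM in MycCaP TAMs. Trps1, a transcription factor gene of growth plate cartilage, had 113 and 86.3 CPM in MycCaP-BMP4 TAMs and 53.2 and 57.4 CPM in MycCaP TAMs. Runx3, a factor of chondrocyte maturation that macrophages and T cells also use, had 53.2 and 82.9 CPM in MycCaP-BMP4 TAMs and 129 and 141 CPM in MycCaP TAMs. Nkx3-2, Barx1 and Pthlh had no count, and Ihh, the hedgehog ligand of the growth plate, had at most 1 count in a library.

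Genes for building proteoglycan chains, both enzymes and the transporters Slc26a2 and Slc35d1, were tested for 14 of 17, with 4 higher and 4 lower in both MycCaP-BMP4 libraries, a median log2 fold change of 0.10, 0 called by edgeR and 1 in each direction by DESeq2. Xylt1, whose enzyme starts the chains on core proteins such as aggrecan, had 0.4345 and 1.845 CPM in MycCaP-BMP4 TAMs and 8.575 and 8.36 CPM in MycCaP TAMs. Chpf, which lengthens chondroitin chains, had 143 and 62.4 CPM in MycCaP-BMP4 TAMs and 33.2 and 35.0 CPM in MycCaP TAMs. Xylt2 lay lower, at 35.9 and 57.3 CPM in MycCaP-BMP4 TAMs against 99.96 and 85.5 CPM in MycCaP TAMs. Slc35d1, a carrier of the sugars used for these chains, lay higher, at 19.3 and 15.1 CPM in MycCaP-BMP4 TAMs against 9.01 and 9.80 CPM in MycCaP TAMs.

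Of 10 genes that set the breakdown of cartilage matrix, the proteases and the metalloproteinase inhibitor gene Timp3, 9 were tested, with 2 higher and 4 lower in both MycCaP-BMP4 libraries, a median log2 fold change of -0.38 that is the value of Timp3, 0 called by edgeR and 2 in each direction by DESeq2. Mmp13, a collagenase of cartilage and bone that macrophages also make, had 25.7 and 50.7 CPM in MycCaP-BMP4 TAMs and 249 and 293 CPM in MycCaP TAMs. Mmp3 had 1 count in each MycCaP-BMP4 library and 24 and 55 counts in MycCaP TAMs. Htra1, a secreted serine protease gene, had 2203 and 893 CPM in MycCaP-BMP4 TAMs and 213 and 270 CPM in MycCaP TAMs, and Adamts1 had 339 and 135 CPM in MycCaP-BMP4 TAMs against 27.2 and 48.8 CPM in MycCaP TAMs.

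**Figure D4:**
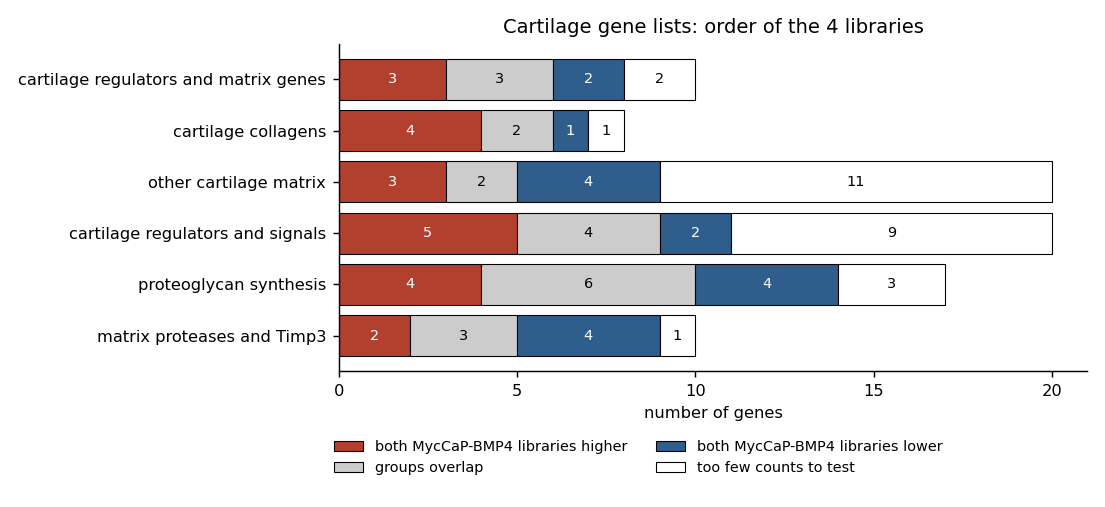
Number of genes in each cartilage list whose 2 MycCaP-BMP4 libraries both lay higher than the 2 MycCaP libraries in CPM (red), whose groups overlapped (grey), whose MycCaP-BMP4 libraries both lay lower (blue) or that had too few counts to test (white). Each of the 6 lists shown holds tested genes in both directions. Of the 10 cartilage regulators and matrix genes 8 were tested, with 3 higher and 2 lower. Among all tested genes 28.9% lay higher and 29.7% lower in this way.

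Markers of other cells that could be in the sort were counted in the same libraries. Of 12 fibroblast genes, all tested, 4 lay higher and 2 lower in both MycCaP-BMP4 libraries, and their summed CPM was 602 and 449 in MycCaP-BMP4 TAMs and 279 and 647 in MycCaP TAMs. Of 10 osteoblast genes 5 were tested and 3 lay higher, with summed CPM of 806 and 599 in MycCaP-BMP4 TAMs and 620 and 654 in MycCaP TAMs. Ibsp, a bone matrix gene, had 49 and 44 counts in MycCaP-BMP4 TAMs and none in MycCaP TAMs, while Bglap and Sost, which mark mature osteoblasts and osteocytes, had at most 1 count in a library. Of 8 endothelial genes 3 lay lower and none higher, with summed CPM of 56.7 and 33.7 in MycCaP-BMP4 TAMs and 55.7 and 99.1 in MycCaP TAMs. The 8 mural cell genes summed to 43.7 and 32.3 CPM in MycCaP-BMP4 TAMs and 26.4 and 50.96 CPM in MycCaP TAMs, with 2 higher and 4 lower. Of 8 Schwann and neural crest genes 6 were tested, 2 higher and 2 lower, with summed CPM of 33.7 and 34.5 in MycCaP-BMP4 TAMs and 43.1 and 54.6 in MycCaP TAMs. Of 15 pan-macrophage genes 12 lay lower and none higher, and of the 8 tested tumour epithelial genes 6 lay higher and 1 lower, beside 28.9% higher and 29.7% lower among all tested genes. The part of these cells in the cartilage gene values was not tested.

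The genes most like each tested cartilage gene were found by the Euclidean distance of log2 CPM, centred per gene, over the 4 libraries. For Sox9 they were Dmpk (distance 0.103), Gm13056 and Aoc2. Dmpk, a muscle kinase gene, had 140 and 65.6 CPM in MycCaP-BMP4 TAMs and 11.3 and 19.8 CPM in MycCaP TAMs. For Vit they were Wif1 (distance 1.27), Bmp4 (2.1) and Ucn2 (2.21). For Ucma they were Itgbl1 (0.702), Agt (1.02) and Vtn (1.29). These distances are larger than those of the genes nearest Sox9 and Hapln1. For genes with counts at or near 0 in a group, they depend on the 0.5 counts added before taking logs. For Hapln1 they were Hey1 (0.0971), a Notch and BMP target gene also on the BMP list, then Clca3a1 and Mmrn2. For Acan they were Gm22027, Gm13372 and Gm7233, for Comp Trp53cor1, Trpm1 and Sfn, for Matn3 Rdh12, Itga1 and Pdgfrb, and for Chad Lypla1, Rpl17 and Dpy19l1. With 4 libraries such likeness is a description.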

How the data were processed

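Polyadenylated RNA was sequenced in strand-specific libraries, per the labels' protocols. The authors deposited whole-number read counts per Ensembl gene, not normalised; HTSeq, STAR 2.6.0b, RSEM, Bowtie2 2.2.3 and build GRCm38 are listed in the submitters' processing notes, with neither their roles, the annotation release nor the strand setting of the counting stated. Symbols were found for 37607 of 39179 identifiers, and coordinates and lengths came from GENCODE M21. The 5 summary lines that name no gene (reads outside genes, 3.37% to 6.03% of reads, in overlapping genes, 2.70% to 2.90%, or aligned to several places, 8.01% to 10.6%) were left out. Libraries held 23058263 to 24967143 gene counts. With the TMM factors, 3 counts, the floor of detection, are worth 0.109 to 0.132 CPM. Intervals and floors cover counting error only. Chi-square per degree of freedom was 208 in the MycCaP-BMP4 pair and 32.9 in the MycCaP pair, so no library repeats another.

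Counts were filtered with filterByExpr (14075 genes), scaled with TMM and tested with edgeR 4.0.16 (quasi-likelihood F test, two-sided, Benjamini-Hochberg adjustment over all tested genes, no covariate); the SE is the log2 fold change divided by the square root of F. CPM uses the TMM factors. Folds of genes without any count in one group use 3 counts, summed over its libraries, as the lowest detectable level. An exact permutation test of 2 against 2 cannot go below 0.333, so none is given. The test was checked on simulated counts that had the same spread for all genes and both groups. That check does not cover the unequal spread of the MycCaP-BMP4 and MycCaP pairs. Alternatives were other scalings and filters, the replicate number as a block, DESeq2 1.42.0, limma-voom 3.58.1 and each library left out. The genes and lists were chosen with earlier results of these data known, and some genes are on 2 lists. Named genes are the 10, up to 4 per list with the smallest p, list members at 0, relatives whose groups do not overlap, the 3 nearest genes and Bmp4; Slc26a2, Timp3, Vcan, Bcan, Hapln3, Sox13, Sox5os1, Acsf2, Matn1, Snorc, Ihh, Epcam, Cdh1, Bglap and Sost were chosen after their values were seen.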

Additional observations from a re-analysis of the deposited data

How the results depend on the processing

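Of all tested genes, edgeR called 0 with DESeq2's size factors and with a filter of 1 CPM in 2 libraries, and limma-voom called 0. EdgeR called 65 genes with library size alone, 757 with scaling on pan-macrophage genes, 1109 with no filter and 2 with the replicate block, and DESeq2 called 1385. Of the cartilage genes, 2 were called with library size alone (Ucma and Vit) and 4 with the pan-macrophage scaling, with no filter and by DESeq2 (Sox9, Acan, Ucma and Vit each time). Leaving out 1 library gave 0 to 5753 genes and 0 to 5 cartilage genes, the higher values without MycCaP-BMP4 replicate 2, where the spread comes from the MycCaP pair alone. The median log2 fold change of the cartilage genes was 2.06 with the pan-macrophage scaling and 0.50 in limma-voom, and ran from 0.03 (without MycCaP-BMP4 replicate 1) to 0.92 with 1 library left out. Hapln1 turned to -0.15 with the replicate block, -0.10 in limma-voom, -0.17 without MycCaP replicate 1 and -1.27 without MycCaP-BMP4 replicate 1, and ran up to 0.89 with 1 library left out. With 1 library left out Comp ran from -0.48 (without MycCaP-BMP4 replicate 2) to 1.89 (without MycCaP-BMP4 replicate 1), and it was 2.00 with the pan-macrophage scaling, under which Matn3 turned to 0.35. The signs of Sox9, Acan, Ucma, Vit and Chad were the same in each alternative that gave a value. The cause of these moves was not tested, except that filters and left-out libraries change the genes and samples in the fit. Replicate numbers in the titles are not said to pair the samples, and deviations of same-numbered libraries correlated at -0.113. With the numbers crossed, an alternative chosen after seeing the data, 689 genes and 3 cartilage genes were called. Depth limits Sox5, Sox6 and Acan, which had under 30 counts in every library.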
